A study of Mus musculus with 13 samples.

Results

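The genes described here are the collagen genes, taken as every row of the table of estimated gene counts whose mouse symbol is Col, a number, a and a number. Of 48795 gene identifiers in the table, 44 met this rule. The table came from RNA sequencing of the right brain hemisphere, less the olfactory bulb and cerebellum, of mice at postnatal day 11. nlsYAP5SA mice (NexCre +/- YAP5SAnls +/-, n = 5) carried Cre at the NEX (Neurod6) locus together with a Cre-dependent transgene for a phosphomutant, nuclear form of YAP1, the transcriptional co-activator at the end of the Hippo pathway. Control littermates (NexCre -/- YAP5SAnls +/-, n = 5) carried that transgene without Cre, and C57BL/6 mice (WT, n = 3) were age-matched animals from outside these litters; all 3 groups had the C57BL/6J strain background. Cre at the NEX locus acts in the lineage of forebrain projection neurons, whereas the RNA came from the whole hemisphere with its vessels, meninges and choroid plexus and was not taken from dissected tumours. Each sample was 1 mouse, and the littermates came from a pair of matings that the labels do not assign to samples.

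Collagens are trimeric proteins of the extracellular matrix whose chains wind into a triple helix. Fibrillar collagens form the banded fibrils of connective tissue, type IV collagens form the sheet of basement membranes, network collagens form hexagonal lattices, and FACIT collagens (fibril-associated collagens with interrupted triple helices) sit on the surface of fibrils. In brain, these proteins are known mainly from the vessel wall, the meninges and the choroid plexus, while the parenchyma itself holds little fibrillar collagen.

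By structural class, the 44 genes were 11 fibrillar genes, 6 type IV genes, 2 multiplexins of the basement membrane zone, 3 network genes, 6 type VI genes, 1 type VII gene, 9 FACIT genes, 4 transmembrane genes and 2 others. In nlsYAP5SA against control, 43 passed the filter on low counts; the transmembrane gene Col17a1 did not. Fold changes are given on the log2 scale with their standard error. Neurod6 was lower in nlsYAP5SA mice (log2 fold change -0.98 ± 0.09, edgeR adjusted p = 2.7e-05), Yap1 was higher (log2 fold change 0.23 ± 0.06, edgeR adjusted p = 0.0361), and the YAP1 targets Ctgf (listed as Ccn2), Cyr61 (listed as Ccn1) and Ankrd1 had log2 fold changes of 1.43 ± 0.09, 2.48 ± 0.18 and 5.14 ± 0.40 (edgeR adjusted p = 1.8e-06, 4.2e-06 and 6.1e-06). Totals ran from 20871566 to 25524349 estimated counts per sample and overlapped between groups. The sex of the mice was not recorded. All 5 controls held between 91.0 and 129 CPM (counts scaled to a common library size, with TMM factors) summed over 4 Y-linked genes, as against 130.2 and 135 CPM in nlsYAP5SA replicates 3 and 4 and 119 and 143 CPM in C57BL/6 replicates 1 and 3. The other 3 nlsYAP5SA samples and the other C57BL/6 sample lay at 0.0942 CPM or below. nlsYAP5SA replicate 3 was the lowest of its group for 29 of the 44 collagen genes, with a summed collagen level of 723 CPM against 958 to 1103 in the other 4.

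In control brain the highest levels of single collagen messages were those of the chains found in nearly all basement membranes. Set side by side per kilobase of merged exons, Col4a1 (20.8 CPM per kb) and Col4a2 (17.2) had the highest control means. After them came Col9a3, a FACIT gene of type IX collagen (7.36), Col1a1 of type I collagen, the main fibril of skin and bone (6.59), and Col6a1 of the beaded filaments (5.84). Both type IV genes stood far above the rest, and Col4a1 was above Col4a2 in each control, and Col9a3 was above Col6a1 in each control. Col1a1 did not differ from either beyond its spread, with an SD over the 5 controls of 1.75 CPM per kb, beside 0.621 for Col9a3 and 0.823 for Col6a1. With the length of the longest transcript in place of merged exons, Col4a1 and Col4a2 stayed first and second, and Col1a2 came next.

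As shares of the summed collagen level per kilobase, type IV genes held 37.9 ± 0.361% (SD, n = 5) in controls, fibrillar genes 21.7 ± 1.92% and FACIT genes 15.5 ± 1.3%. In nlsYAP5SA mice these shares were 36.1 ± 1.47%, 24.4 ± 1.91% and 13.9 ± 1.37% (SD, n = 5), each overlapping the range of the controls. The network genes stood apart, with 2.01 ± 0.172% in controls, 5.16 ± 0.226% in nlsYAP5SA mice and 2.06 ± 0.367% in C57BL/6 mice (n = 3); the lowest nlsYAP5SA sample was at 4.95% and the highest control at 2.23%. The shares depended on the length used. With the longest transcript in place of merged exons, type IV, fibrillar and FACIT shares were 31.1%, 25.6% and 14.2% in controls. In nlsYAP5SA mice these shares were then 29.6%, 29.0% and 12.8%. The summed collagen level itself was 792 ± 106 CPM in controls, 964 ± 146 CPM in nlsYAP5SA mice and 865 ± 40.5 CPM in C57BL/6 mice, with overlapping ranges.

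Between nlsYAP5SA and control mice, 13 collagen genes rose and 2 fell at an adjusted p of 0.05 or less. The genes that rose were Col4a3, Col4a4, Col4a5 and Col4a6 of type IV, Col8a1 and Col8a2 of type VIII, the fibrillar genes Col1a2, Col2a1, Col5a2, Col5a3 and Col11a1, and the FACIT genes Col12a1 and Col20a1. Col11a2, a fibrillar gene, and Col15a1, a multiplexin, fell. Among all 16315 genes tested, 7.36% rose and 3.44% fell. The median log2 fold change of the 43 collagen genes was 0.22, with 30 (69.8%) above 0, beside a median of -0.01 and 48.7% above 0 over all genes. For 11 of the 43 genes every nlsYAP5SA sample lay above every control and for 0 below, where 6.5% and 3.57% of all genes did so. In tissue of mixed cells, fewer cells of a type and less RNA per cell cannot be told apart.

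Of the 15 called genes, 9 kept the call in all 22 other fits made of these samples (other scalings, filters and tests, a replicate block, covariates, and each library left out in turn): Col4a3, Col4a4, Col4a5, Col4a6, Col8a1, Col8a2, Col5a2, Col5a3 and Col11a1. Without nlsYAP5SA replicate 3, 14 rose and 1 fell, where all genes gave 1223 higher and 549 lower of 16409. With the 2 nlsYAP5SA and 5 control libraries that held Y-linked reads, an alternative added after the data were seen, 5 rose (Col4a3, Col4a4, Col8a1, Col8a2 and Col11a1) and 0 fell, where all genes gave 308 higher and 26 lower of 16918, and all 15 kept their sign. With the Y-linked level as a covariate over all 10 samples, 9 rose and 0 fell, where all genes gave 475 higher and 64 lower of 16315.

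**Figure D1:**
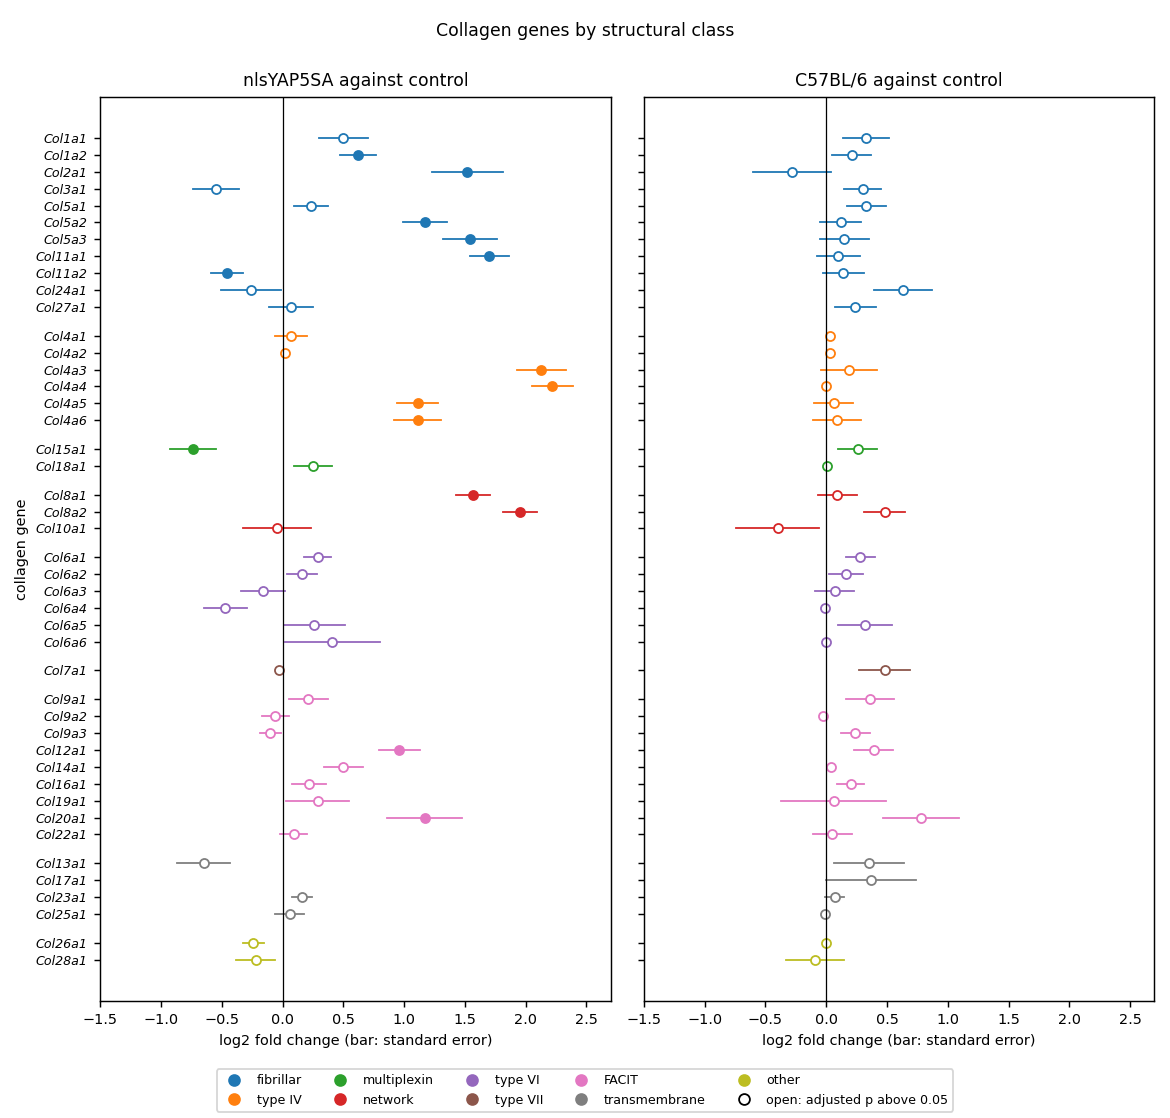
Log2 fold change of each collagen gene (rows, grouped and coloured by class) in nlsYAP5SA against control (left) and C57BL/6 against control (right); bars are standard errors, left out where the change is below 0.05, and filled points have an adjusted p of 0.05 or less. On the left 13 genes rose and 2 fell, and on the right no point is filled.

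The basement membrane genes of type IV comprised 4 genes that rose and a pair, Col4a1 and Col4a2, that did not pass the test. Col4a1 and Col4a2 encode the chains common to almost all basement membranes, Col4a3, Col4a4 and Col4a5 encode chains that assemble together in specialised ones such as that of the glomerulus, and the product of Col4a6 assembles with that of Col4a5. Over the class, 4 of 6 rose, 0 fell, and the median log2 fold change was 1.11.

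Col4a4 measured 1.72, 1.84, 1.46, 1.26 and 2.5 CPM in the 5 controls, 8.77, 9.42, 6.15, 8.3 and 8.34 CPM in the 5 nlsYAP5SA mice and 1.79, 1.29 and 2.14 CPM in the 3 C57BL/6 mice. Every nlsYAP5SA value was above every value of the other groups, and the gene rose 4.67-fold (log2 fold change 2.22 ± 0.17, edgeR adjusted p = 6.5e-06). Col4a3 measured 1.19, 1.1, 1.75, 1.22 and 1.32 CPM in controls, 6.1, 8.24, 4.25, 4.61 and 5.62 CPM in nlsYAP5SA mice and 1.39, 1.2 and 1.9 CPM in C57BL/6 mice. Its nlsYAP5SA values also lay above all values of the other groups, and it rose 4.37-fold (log2 fold change 2.13 ± 0.20, edgeR adjusted p = 2.7e-05).

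Col4a5 was the most abundant of the 4, at 9.77, 13.7, 17.7, 15.4 and 15.9 CPM in controls, 35.9, 34.7, 20.5, 30.1 and 35.5 CPM in nlsYAP5SA mice and 15.1, 14.5 and 15.7 CPM in C57BL/6 mice. The lowest nlsYAP5SA value, from replicate 3, still lay above the highest control, and the gene rose 2.16-fold (log2 fold change 1.11 ± 0.17, edgeR adjusted p = 9.2e-04). For Col4a6 the values were 2.94, 3.13, 4.5, 4.87 and 4.35 CPM in controls, 8.86, 8.43, 5.37, 10.6 and 9.56 CPM in nlsYAP5SA mice and 4.62, 4.6 and 3.43 CPM in C57BL/6 mice. It too rose 2.16-fold without overlap (log2 fold change 1.11 ± 0.19, edgeR adjusted p = 0.00187). Both genes lie on the X chromosome, and in the libraries with Y-linked reads their log2 fold changes were 0.80 and 1.01 (edgeR adjusted p = 0.112 and 0.123).

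Col4a1 was 155 ± 19.9 CPM in controls and 164 ± 32.0 CPM in nlsYAP5SA mice (SD, n = 5 each), and Col4a2 was 114 ± 14.4 and 116 ± 17.0 CPM. For Col4a1 the log2 difference was 0.07, with an approximate 95% interval from -0.18 to 0.33 (edgeR adjusted p = 0.777), and for Col4a2 it was 0.02 (edgeR adjusted p = 0.937). With the mural marker covariate Col4a1 was called higher, at 0.40 (edgeR adjusted p = 0.0153). Together, Col4a3 to Col4a6 made up 7.18 ± 0.861% of the type IV level per kilobase in controls, 15.2 ± 1.28% in nlsYAP5SA mice and 7.4 ± 0.459% in C57BL/6 mice. No sample of nlsYAP5SA mice overlapped the other groups in this share, which ran from 14.0 to 17.3% in them and from 5.88 to 8.0% in controls. The share is built from the type IV genes that rose, so its separation is not independent of theirs.

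**Figure D2:**
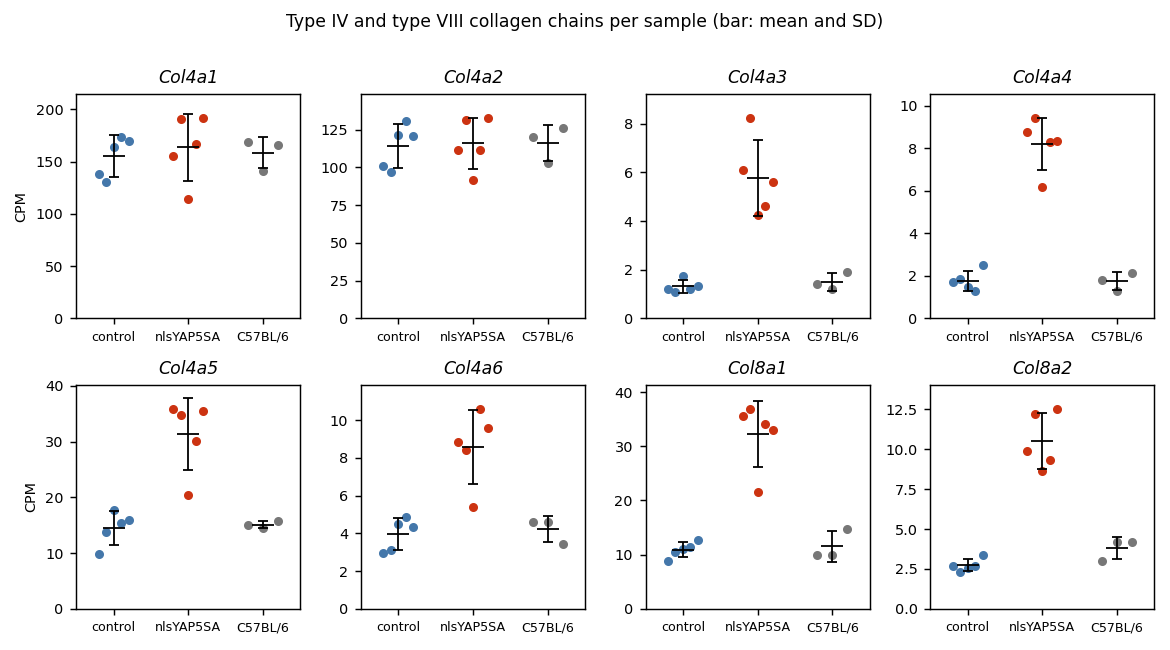
CPM of the 6 type IV and the 2 type VIII genes in each sample (points) with the group mean and SD (bars), for 5 control, 5 nlsYAP5SA and 3 C57BL/6 mice. Col4a1 and Col4a2 overlap between all groups, while for the other 6 genes every nlsYAP5SA point lies above every control point.

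The type IV genes lie in head-to-head pairs, and the genes of a pair had similar fold changes. Col4a1 and Col4a2 overlap by 22 bases on chromosome 8, Col4a4 and Col4a3 start 71 bases apart on chromosome 1, and Col4a6 and Col4a5 start 1308 bases apart on chromosome X (GRCm38, GENCODE M21). Within pairs, the log2 ratio of Col4a1 to Col4a2 per kilobase was 0.27 ± 0.03 in controls and 0.31 ± 0.10 in nlsYAP5SA mice, and that of Col4a5 to Col4a6 was 2.12 ± 0.19 and 2.13 ± 0.22. The ratio of Col4a4 to Col4a3 was 0.31 ± 0.49 and 0.44 ± 0.23. None of these 3 ratios separated nlsYAP5SA mice from controls. The whole interval between the starts of Col4a4 and Col4a3 (chr1:82586850-82586920) and the 250 bases before the start of Col4a6 (chrX:141474077-141474326) are shown because these start regions belong to the pairs that rose; both are read on the minus strand, the strand of Col4a4 and Col4a6, 5′ to 3′, from RefSeq on GRCm38.p6. In these and the later start regions, capitals would mark GGAATG or its reverse complement CATTCC, the core letters bound by TEAD factors, through which YAP1 acts; neither sequence holds a match.
Col4a4 to Col4a3: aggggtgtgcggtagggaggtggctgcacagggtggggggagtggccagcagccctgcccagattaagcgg
Col4a6: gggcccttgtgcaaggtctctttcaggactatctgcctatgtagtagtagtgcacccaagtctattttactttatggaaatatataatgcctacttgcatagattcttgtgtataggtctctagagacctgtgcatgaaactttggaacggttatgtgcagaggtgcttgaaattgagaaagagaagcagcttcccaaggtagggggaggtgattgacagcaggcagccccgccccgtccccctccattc

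Of the network genes, both chains of type VIII collagen rose and the type X gene did not pass the test. Type VIII collagen is a short-chain collagen of Descemet's membrane and of the layer under the vessel endothelium, and type X collagen is known from hypertrophic cartilage. Col8a2 measured 2.7, 2.31, 2.58, 2.69 and 3.35 CPM in controls, 9.9, 12.2, 8.67, 9.35 and 12.6 CPM in nlsYAP5SA mice and 3.0, 4.22 and 4.2 CPM in C57BL/6 mice. It rose 3.86-fold with no overlap (log2 fold change 1.95 ± 0.14, edgeR adjusted p = 2.7e-06). Col8a1 measured 8.83, 10.5, 11.0, 11.3 and 12.7 CPM in controls, 35.6, 37.0, 21.6, 34.1 and 33.1 CPM in nlsYAP5SA mice and 9.86, 9.87 and 14.8 CPM in C57BL/6 mice. It rose 2.96-fold (log2 fold change 1.57 ± 0.14, edgeR adjusted p = 1.7e-05), and its lowest nlsYAP5SA value, from replicate 3, was still above the highest control. Col10a1 stayed between 0.352 and 0.756 CPM in the 10 control and nlsYAP5SA samples, with a log2 fold change of -0.05 ± 0.28 (edgeR adjusted p = 0.933).

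Col8a1 and Col8a2 lie on different chromosomes, 16 and 4. Their start regions are shown since the genes rose together and their chains can assemble with each other. Col8a1 (chr16:57754738-57754987) is read on the minus strand and Col8a2 (chr4:126286544-126286793) on the plus strand (RefSeq, GRCm38.p6), and neither holds the TEAD letters in its 250 bases.
Col8a1: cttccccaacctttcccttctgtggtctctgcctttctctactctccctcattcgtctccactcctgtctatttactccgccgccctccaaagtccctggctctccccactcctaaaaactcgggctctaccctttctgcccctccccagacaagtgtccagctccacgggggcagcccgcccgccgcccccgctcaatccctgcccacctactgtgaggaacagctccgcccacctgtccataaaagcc
Col8a2: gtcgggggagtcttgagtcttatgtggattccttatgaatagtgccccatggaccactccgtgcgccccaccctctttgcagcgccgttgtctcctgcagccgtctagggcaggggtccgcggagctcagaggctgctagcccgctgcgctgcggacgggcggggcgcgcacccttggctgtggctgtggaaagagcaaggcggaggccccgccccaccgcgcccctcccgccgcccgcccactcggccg

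Fibrillar genes moved in both directions: 5 of 11 rose, 1 fell, and the median log2 fold change was 0.50. Of the 5, 3 belong to types V and XI, minor fibrillar collagens that are built into fibrils of the major types and limit their width. Col11a1 had the highest fold, at 7.44, 9.04, 10.7, 11.0 and 12.3 CPM in controls, 32.2, 35.7, 22.2, 35.5 and 38.8 CPM in nlsYAP5SA mice and 9.15, 9.92 and 13.3 CPM in C57BL/6 mice. All nlsYAP5SA values were above every value of the other groups, and the gene rose 3.26-fold (log2 fold change 1.70 ± 0.16, edgeR adjusted p = 2.3e-05). Col11a2, which encodes another chain of type XI collagen, went the other way, at 13.5, 10.4, 15.5, 17.8 and 14.7 CPM in controls, 10.9, 10.5, 10.2, 8.83 and 11.9 CPM in nlsYAP5SA mice and 13.1, 16.3 and 17.9 CPM in C57BL/6 mice. Its nlsYAP5SA and control values overlapped, and the fall was called (log2 fold change -0.46 ± 0.13, edgeR adjusted p = 0.0391). That call was lost without any 1 of 7 libraries (control replicates 3, 4 and 5 and nlsYAP5SA replicates 1, 2, 3 and 4), with an adjusted p of up to 0.106. It was also lost with library size alone and with each of the 4 covariates tried (edgeR adjusted p from 0.0501 to 0.117). With the covariates the log2 fold change of Col11a2 ran from -0.59 to -0.40. The log2 ratio of Col11a1 to Col11a2 per kilobase passed from -1.40 ± 0.28 in controls to 0.74 ± 0.33 in nlsYAP5SA mice, so that Col11a1 was the lower of the pair in every control and the higher in every nlsYAP5SA sample. This ratio rests on the same values as the calls of both genes, is not independent of them, and was not tested.

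Col5a2 measured 10.2, 13.3, 16.9, 17.1 and 17.5 CPM in controls, 35.0, 37.1, 20.9, 36.3 and 39.7 CPM in nlsYAP5SA mice and 15.4, 15.1 and 18.2 CPM in C57BL/6 mice. It rose 2.25-fold (log2 fold change 1.17 ± 0.18, edgeR adjusted p = 9.5e-04), again with replicate 3 lowest but above all controls. Col5a3, the rarer chain of type V, measured 1.59, 1.25, 1.29, 1.89 and 1.75 CPM in controls, 4.38, 5.37, 4.03, 2.65 and 6.18 CPM in nlsYAP5SA mice and 1.7, 2.01 and 1.45 CPM in C57BL/6 mice. It rose 2.9-fold without overlap (log2 fold change 1.54 ± 0.22, edgeR adjusted p = 6.1e-04). Col2a1, the fibril of cartilage, was low throughout, at 1.39, 0.705, 1.21, 0.672 and 0.945 CPM in controls, 1.94, 3.48, 1.65, 3.35 and 3.79 CPM in nlsYAP5SA mice and 1.08, 0.575 and 0.767 CPM in C57BL/6 mice. Its nlsYAP5SA values were above all values of the other groups, and it rose 2.87-fold (log2 fold change 1.52 ± 0.29, edgeR adjusted p = 0.0041). With the Y-linked covariate the log2 fold change was 1.34 (edgeR adjusted p = 0.0771).

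The most abundant fibrillar genes, those of types I and III, had fold changes of different sign, of which that of Col1a2 passed the test. Col1a2 measured 45.0, 51.7, 67.3, 76.2 and 69.8 CPM in controls, 104, 96.1, 66.1, 97.6 and 114 CPM in nlsYAP5SA mice and 78.7, 67.8 and 68.8 CPM in C57BL/6 mice. It rose 1.54-fold (log2 fold change 0.62 ± 0.15, edgeR adjusted p = 0.0214) although replicate 3 lay among the controls. The call was lost without control replicate 2 or nlsYAP5SA replicate 1, 2 or 5 (adjusted p up to 0.064). It was also lost with the Y-linked covariate (log2 fold change 0.42, edgeR adjusted p = 0.383) and with the meningeal marker covariate (log2 fold change 0.37, edgeR adjusted p = 0.171). Col1a1, the partner chain, measured 30.3, 32.5, 47.2, 57.1 and 49.2 CPM in controls and 64.1, 63.4, 37.1, 65.4 and 75.6 CPM in nlsYAP5SA mice, and its log2 fold change of 0.50 ± 0.20 did not pass (edgeR adjusted p = 0.135). Col3a1, which forms thin fibrils in vessel walls and other soft tissue, measured 39.8, 41.3, 55.7, 58.4 and 59.4 CPM in controls, 28.0, 33.8, 22.3, 47.8 and 42.2 CPM in nlsYAP5SA mice and 70.5, 64.2 and 53.6 CPM in C57BL/6 mice. It had a negative log2 fold change that did not pass against controls (-0.55 ± 0.19, edgeR adjusted p = 0.0879); it was called lower by DESeq2 and by edgeR without nlsYAP5SA replicate 4 or with the meningeal marker covariate, and stood at -0.04 with the mural marker covariate. Col1a1 was called higher without nlsYAP5SA replicate 3 and with the mural marker covariate.

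The level of Col3a1 relative to Col1a1 and Col5a2 was lower in every nlsYAP5SA sample than in every control. Per kilobase, the log2 ratio of Col3a1 to Col1a1 was -0.32 ± 0.14 in controls, -0.37 ± 0.09 in C57BL/6 mice and -1.41 ± 0.27 in nlsYAP5SA mice, and that of Col5a2 to Col3a1 was -1.74 ± 0.12, -1.91 ± 0.34 and 0.01 ± 0.27. These 2 ratios were computed after the levels had been seen and were not tested. Col3a1 and Col5a2 are neighbours on chromosome 1, tail to tail and 24614 bases apart, with log2 fold changes of -0.55 and 1.17. The start regions of Col11a1 (chr3:114030290-114030539, plus strand), whose fold was the highest of the fibrillar class, and Col3a1 (chr1:45311288-45311537, plus strand) are given for comparison; of the 6 regions shown here, the TEAD letters occur in that of Col3a1 only.
Col11a1: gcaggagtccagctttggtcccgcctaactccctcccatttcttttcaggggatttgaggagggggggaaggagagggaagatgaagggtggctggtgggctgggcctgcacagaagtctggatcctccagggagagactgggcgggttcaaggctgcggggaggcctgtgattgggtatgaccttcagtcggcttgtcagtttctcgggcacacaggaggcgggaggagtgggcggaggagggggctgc
Col3a1: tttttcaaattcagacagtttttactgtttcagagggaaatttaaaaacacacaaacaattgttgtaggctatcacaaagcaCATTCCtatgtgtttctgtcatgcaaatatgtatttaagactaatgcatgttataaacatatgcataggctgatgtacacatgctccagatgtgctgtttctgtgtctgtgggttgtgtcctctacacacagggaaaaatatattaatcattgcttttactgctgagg

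RefSeq gave 38 windows of 250 bases before a start, for 35 of the 44 collagen genes. The letters GGAATG or CATTCC, on either strand, were in 4 of the 38 windows (those of Col3a1, Col6a2, Col18a1 and Col20a1) and in 12.6% of all 32851 windows of that length. A match of these letters is a description of the window and not a binding site.

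The remaining 3 fibrillar genes did not pass the test, with log2 fold changes between -0.26 and 0.23 and groups that overlapped. Of these, 1 was called higher with the mural marker covariate (edgeR adjusted p = 0.00913).

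Among FACIT genes 2 of 9 rose and 0 fell, with a median log2 fold change of 0.22. Col12a1, which coats type I fibrils in tendon and fascia, measured 8.42, 10.02, 11.9, 9.28 and 11.6 CPM in controls, 18.4, 22.5, 12.1, 24.7 and 22.1 CPM in nlsYAP5SA mice and 12.8, 10.8 and 16.6 CPM in C57BL/6 mice. It rose 1.95-fold (log2 fold change 0.96 ± 0.17, edgeR adjusted p = 0.00266) with no overlap with the controls, and with the Y-linked covariate the log2 fold change was 0.86 (edgeR adjusted p = 0.0594). Col20a1 was low, at 0.573, 0.744, 1.13, 1.55 and 0.897 CPM in controls, 1.72, 3.53, 1.3, 2.04 and 2.48 CPM in nlsYAP5SA mice and 1.48, 1.49 and 2.06 CPM in C57BL/6 mice. Its groups overlapped, and it rose 2.25-fold (log2 fold change 1.17 ± 0.31, edgeR adjusted p = 0.0278). The call was lost without control replicate 1, 2 or 5 or nlsYAP5SA replicate 2 or 5 (adjusted p up to 0.0761). It was also lost with the Y-linked covariate (log2 fold change 0.80, edgeR adjusted p = 0.421) and with the meningeal marker covariate (log2 fold change 0.98, edgeR adjusted p = 0.165). The FACIT genes with the highest level per kilobase, Col9a3 and Col9a2 of type IX collagen, had log2 fold changes of -0.10 ± 0.09 and -0.06 ± 0.11 (edgeR adjusted p = 0.501 and 0.773). The other 5 FACIT genes lay between 0.09 and 0.50, and 2 of them were called higher with the mural marker covariate (edgeR adjusted p = 0.0474 and 0.0304).

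The multiplexins, which sit where basement membrane meets the fibrils around vessels and nerves, comprised 1 gene that fell and 1 that did not pass. Col15a1 measured 7.44, 7.55, 8.71, 11.8 and 9.78 CPM in controls, 4.93, 5.27, 3.81, 8.22 and 4.78 CPM in nlsYAP5SA mice and 9.77, 10.5 and 12.2 CPM in C57BL/6 mice. Of the nlsYAP5SA values only that of replicate 4 lay within the range of the controls, and the gene fell to 0.598 of the control level (log2 fold change -0.74 ± 0.19, edgeR adjusted p = 0.025). That call was lost without control replicate 4 or 5 or nlsYAP5SA replicate 1, 2 or 5 (adjusted p up to 0.0694). It was also lost with the Y-linked covariate (log2 fold change -0.59, edgeR adjusted p = 0.347) and with the mural marker covariate (log2 fold change -0.34, edgeR adjusted p = 0.2). Col18a1, whose product releases endostatin, was 18.7 ± 2.35 CPM in controls and 22.2 ± 5.35 CPM in nlsYAP5SA mice, and did not pass (0.25 ± 0.16, edgeR adjusted p = 0.356), but was called higher with the mural marker covariate (0.65, edgeR adjusted p = 9.3e-04).

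**Figure D3:**
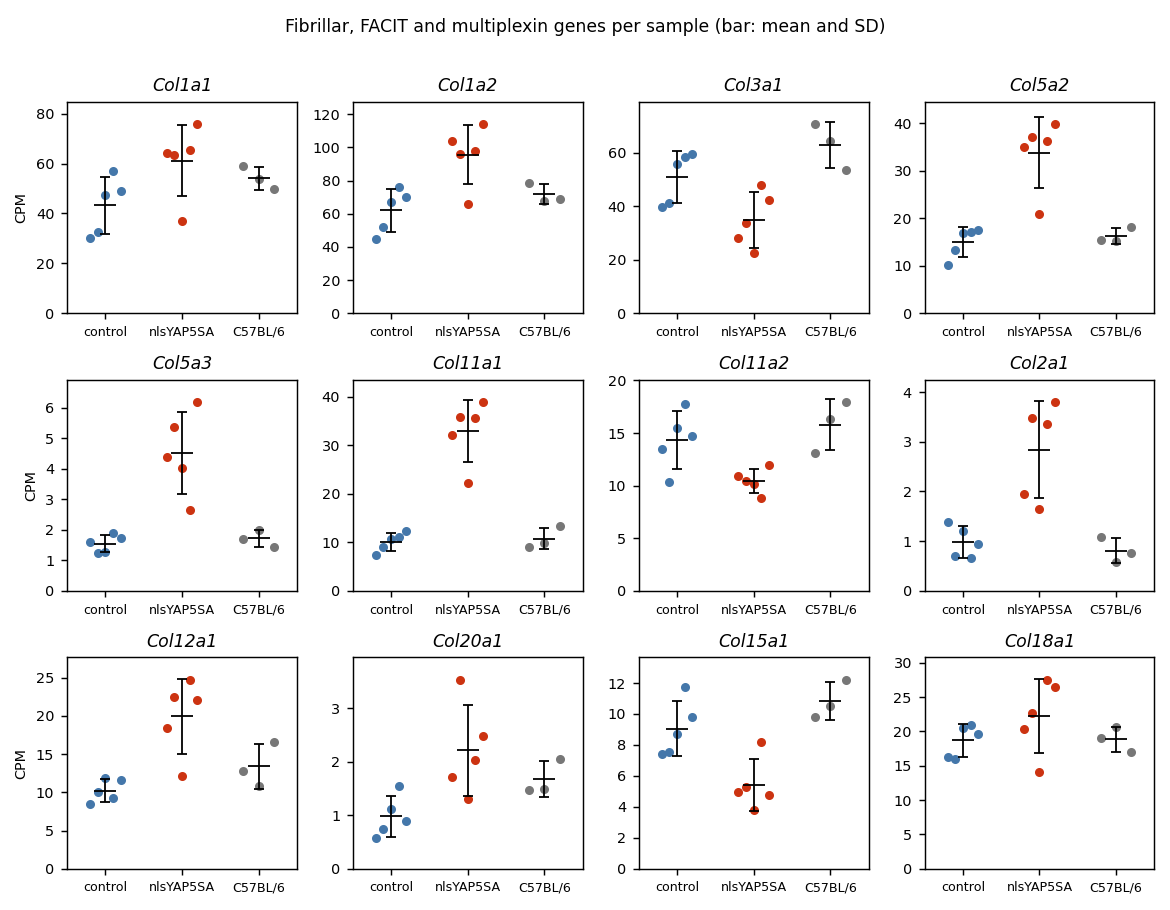
CPM per sample (points) with group mean and SD (bars) for 8 fibrillar genes, the FACIT genes Col12a1 and Col20a1 and the multiplexins Col15a1 and Col18a1 in 5 control, 5 nlsYAP5SA and 3 C57BL/6 mice. Col5a2, Col5a3, Col11a1, Col2a1 and Col12a1 separate nlsYAP5SA from control samples, and the groups overlap for Col3a1, Col11a2 and Col15a1.

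No gene of the remaining classes passed the test against controls. The 6 type VI genes, whose products form beaded filaments around cells, had log2 fold changes from -0.47 to 0.41, and the most abundant, Col6a1 and Col6a2, stood at 0.29 ± 0.11 and 0.16 ± 0.12 (edgeR adjusted p = 0.122 and 0.471); Col6a1 was called higher without nlsYAP5SA replicate 4. Col7a1, the anchoring fibril of skin, was 1.95 ± 0.427 CPM in controls and 1.92 ± 0.269 CPM in nlsYAP5SA mice (edgeR adjusted p = 0.953). Among transmembrane genes, Col25a1, known from neurons, was 55.6 ± 10.7 and 57.8 ± 7.13 CPM, and Col23a1 was 16.0 ± 0.823 and 18.0 ± 2.08 CPM (edgeR adjusted p = 0.824 and 0.263). Col13a1, a collagen of the neuromuscular junction, had a log2 fold change of -0.65 ± 0.22 (edgeR adjusted p = 0.086). Col26a1 and Col28a1 had values of -0.24 ± 0.09 and -0.22 ± 0.16 (edgeR adjusted p = 0.109 and 0.444).

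The C57BL/6 mice addressed whether the transgene without Cre, or the breeding, differed from wild type. None of the 44 collagen genes was called between C57BL/6 and control mice by edgeR, 6 had an unadjusted p of 0.05 or less, as did 625 of the 16546 genes tested, and DESeq2 called 0; 0.169% of all genes were called, 0.0484% higher and 0.121% lower. The median log2 fold change of the collagen genes was 0.13, with 37 of 44 (84.1%) above 0, beside a median of 0.00 and 50.7% above 0 over all genes. Col4a4, with the highest fold in nlsYAP5SA mice, had a difference of 0.00 on the log2 scale, for which no standard error could be derived. For the next 4 by fold against controls the approximate 95% intervals of the difference of C57BL/6 from control ran from -0.26 to 0.64 for Col4a3, from -0.23 to 0.40 for Col8a1, from 0.16 to 0.81 for Col8a2 and from -0.25 to 0.45 for Col11a1 on the log2 scale. The interval of Col8a2 lay above 0, with an edgeR adjusted p of 1. Col20a1 had the highest positive value, 0.78 ± 0.31, with an edgeR adjusted p of 1.

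Against C57BL/6 mice, 10 collagen genes were higher in nlsYAP5SA mice and 4 were lower, of 43 tested, where 4.16% of 16641 genes were higher and 2.22% lower (6.38% in either direction). The median log2 fold change of the collagen genes was 0.03, with 24 of 43 (55.8%) above 0, beside a median of -0.01 and 47.9% above 0 over all genes. This comparison uses the same nlsYAP5SA samples as the one against controls, so its values are given beside those and are not independent of them. Higher were Col4a3 (1.92, beside 2.13 against controls), Col4a4 (2.21 and 2.22), Col4a5 (1.04 and 1.11), Col4a6 (1.01 and 1.11), Col8a1 (1.47 and 1.57), Col8a2 (1.45 and 1.95), Col11a1 (1.59 and 1.70), Col5a2 (1.04 and 1.17), Col5a3 (1.38 and 1.54) and Col2a1 (1.79 and 1.52), all as log2 fold changes. Lower were Col3a1 (log2 fold change -0.86 ± 0.21, edgeR adjusted p = 0.0415), Col11a2 (log2 fold change -0.61 ± 0.13, edgeR adjusted p = 0.0218), Col15a1 (log2 fold change -1.02 ± 0.21, edgeR adjusted p = 0.0209) and Col13a1 (log2 fold change -1.01 ± 0.26, edgeR adjusted p = 0.0466). Col1a2, Col12a1 and Col20a1 did not pass here, at 0.40 ± 0.15, 0.56 ± 0.22 and 0.38 ± 0.31 (edgeR adjusted p = 0.162, 0.187 and 0.533), and whether the 2 comparisons differ for them was not tested. With the libraries that held Y-linked reads, 2 in each group, 0 collagen genes were called in either direction by edgeR, where all genes gave 43 higher and 4 lower of 16495. The calls of Col4a3, Col4a4, Col4a5, Col8a1, Col8a2 and Col11a1 held without any 1 library. That of Col2a1 was lost without C57BL/6 replicate 2, those of Col5a2 and Col5a3 without C57BL/6 replicate 1, that of Col4a6 without nlsYAP5SA replicate 1 or 5 or C57BL/6 replicate 1 or 2, and that of Col11a2 without nlsYAP5SA replicate 2 or C57BL/6 replicate 2. Those of Col3a1 and Col15a1 were lost without nlsYAP5SA replicate 1, 2 or 5 or C57BL/6 replicate 1 or 2, and that of Col13a1 when any 1 of the 7 libraries other than C57BL/6 replicate 3 was left out, and also with library size alone. Without 1 library the adjusted p reached 0.204 for Col13a1 and 0.165 for Col3a1.

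Collagen chains must be hydroxylated, folded, trimmed and cross-linked before they form a matrix. Of 70 genes listed for these steps, for binding and for breakdown of collagen, 66 were tested in nlsYAP5SA against control; 24 rose and 2 fell, beside the 7.36% and 3.44% of all genes, and the median log2 fold change was 0.21. Among cross-linking enzymes 3 of 4 tested rose, with a median of 1.54. With the libraries that held Y-linked reads, 10 of these genes rose and 0 fell, where all genes gave 308 higher and 26 lower of 16918, and with the Y-linked covariate 12 rose and 0 fell, where all genes gave 475 higher and 64 lower of 16315.

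Lox, the lysyl oxidase that starts covalent cross-links between collagen chains, measured 3.84, 5.64, 7.13, 6.93 and 6.75 CPM in controls, 49.9, 58.3, 29.9, 37.7 and 49.0 CPM in nlsYAP5SA mice and 6.28, 5.61 and 7.03 CPM in C57BL/6 mice. It rose 7.42-fold with no overlap (log2 fold change 2.89 ± 0.20, edgeR adjusted p = 2.4e-06). Loxl2, a relative with activity on type IV collagen, measured 4.09, 5.01, 6.34, 5.71 and 5.53 CPM in controls, 22.7, 24.2, 16.4, 26.7 and 27.0 CPM in nlsYAP5SA mice and 6.59, 6.09 and 5.89 CPM in C57BL/6 mice. It rose 4.38-fold (log2 fold change 2.13 ± 0.15, edgeR adjusted p = 2.6e-06), and Loxl1 rose 1.93-fold (log2 fold change 0.94 ± 0.10, edgeR adjusted p = 6.4e-05). Over all maturation steps 11 of 33 tested genes rose and 0 fell. Among them were the propeptide protease Adamts14 (log2 fold change 1.28 ± 0.28, edgeR adjusted p = 0.00981) and the prolyl hydroxylase subunit P4ha3 (log2 fold change 0.85 ± 0.13, edgeR adjusted p = 0.00106).

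Among genes for the breakdown of collagen and its control, 5 of 11 rose and 1 fell. Of 4 metalloproteinase inhibitors, 3 rose: Timp1 (log2 fold change 1.71 ± 0.33, edgeR adjusted p = 0.00494, with groups that overlapped), Timp3 (log2 fold change 0.92 ± 0.08, edgeR adjusted p = 1.7e-05) and Timp2 (log2 fold change 0.33 ± 0.05, edgeR adjusted p = 5.6e-04). Of 7 tested collagenases, gelatinases and related proteases, Mmp2 (0.39 ± 0.11) and Mmp14 (0.28 ± 0.08) rose and Mmp15 (-0.27 ± 0.06) fell (edgeR adjusted p = 0.0319, 0.049 and 0.0172). Among matrix partners of collagen, 6 of 12 rose and 1 fell. The small leucine-rich proteoglycans, which bind fibrils and set their spacing, went both ways, with Fmod (log2 fold change 1.49 ± 0.13, edgeR adjusted p = 1.8e-05), Ogn (log2 fold change 1.29 ± 0.11, edgeR adjusted p = 1.7e-05) and Prelp (log2 fold change 1.13 ± 0.13, edgeR adjusted p = 1.1e-04) higher and Lum lower (log2 fold change -0.83 ± 0.19, edgeR adjusted p = 0.0151). Tgfbi, a secreted collagen-binding protein, and Hspg2, the perlecan of basement membranes, also rose (1.70 ± 0.30 and 0.70 ± 0.18, edgeR adjusted p = 0.00258 and 0.0285).

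Of 10 collagen receptors tested, 2 rose, Lair1, an inhibitory receptor of immune cells (log2 fold change 0.86 ± 0.10, edgeR adjusted p = 1.2e-04), and Ddr1, a receptor tyrosine kinase for collagen (log2 fold change 0.36 ± 0.05, edgeR adjusted p = 5.6e-04); 0 of 5 integrin subunits passed by edgeR. In C57BL/6 against control, 0 of the 66 tested genes of the 4 lists were called by edgeR. In nlsYAP5SA against C57BL/6, 13 of 67 were higher and 1 was lower, beside 4.16% and 2.22% of all genes.

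**Figure D4:**
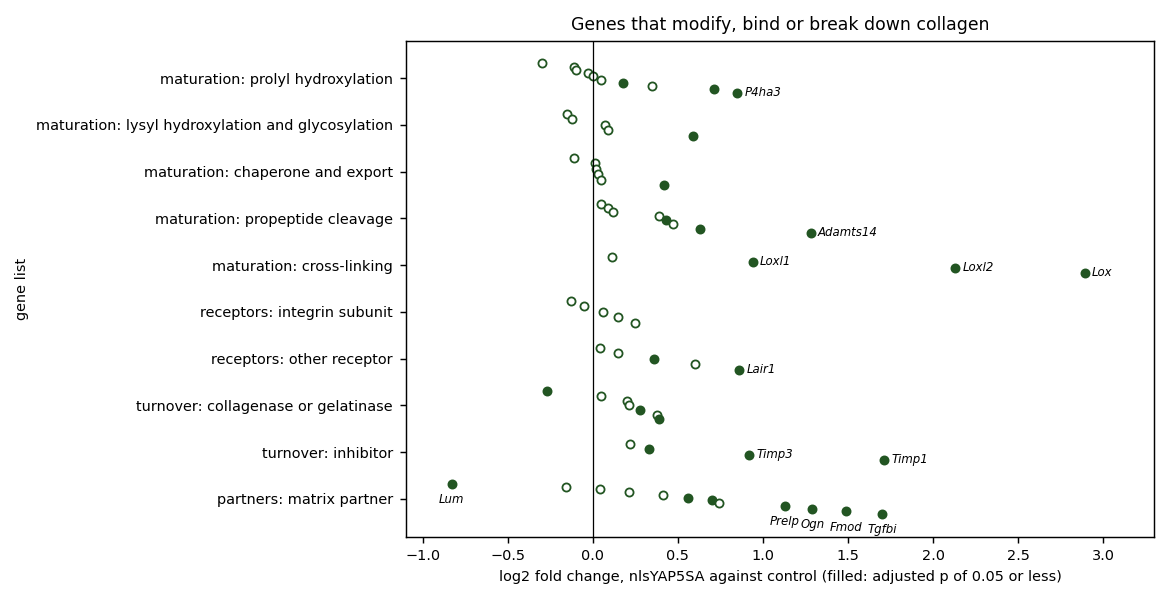
Log2 fold change in nlsYAP5SA against control (horizontal axis) of the 66 tested genes that modify, bind or break down collagen, by list (rows); filled points have an adjusted p of 0.05 or less, and called genes beyond 0.8 in either direction are named. Lox and Loxl2 lie farthest to the right, and Lum farthest to the left.

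Markers of cell types present in the hemisphere were measured beside the collagen genes. Their called counts, here and in the next paragraph, stand beside 7.36% higher and 3.44% lower among all genes tested. Of 11 tested markers of meningeal fibroblasts, 1 rose (Aldh1a2) and 1 fell (Lum, which is also among the matrix partners above), and their summed level ran from 56.6 to 69.7 CPM in controls, from 61.6 to 78.4 CPM in nlsYAP5SA mice and from 61.6 to 76.4 CPM in C57BL/6 mice. Mural cell markers went both ways, with 3 of 12 higher, the contractile genes Acta2, Tagln and Cnn1, and 4 lower, the pericyte genes Rgs5, Kcnj8, Vtn and Higd1b; their sum ran from 338 to 415 CPM in controls and from 241 to 365 CPM in nlsYAP5SA mice. Of 12 endothelial markers 3 fell and 0 rose, with sums from 283 to 325 CPM and from 245 to 306 CPM. With the summed meningeal level as a covariate, 11 collagen genes rose and 2 fell (Col3a1 and Col15a1), where all genes gave 713 higher and 220 lower of 16315. With the summed mural level 19 rose and 0 fell, where calls over all genes also increased, to 2085 higher and 1769 lower of 16315.

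Choroid plexus varied widely within each group, and its summed markers ran from 19.7 to 249 CPM in controls, from 23.7 to 332 CPM in nlsYAP5SA mice and from 18.9 to 285 CPM in C57BL/6 mice; 2 of 12 rose. With Ttr, its most abundant marker, as a covariate, 13 collagen genes rose and 1 fell, where all genes gave 1028 higher and 461 lower of 16315. Microglial markers rose in 5 of 10 (sums of 346 to 434 CPM in controls and 467 to 604 CPM in nlsYAP5SA mice), astrocyte markers in 3 of 10 with 1 lower (3209 to 5621 and 4983 to 6996 CPM) and ciliated ependymal markers in 1 of 10 (15.4 to 32.8 and 30.0 to 35.9 CPM). Forebrain neuron markers, which check the labelled tissue, summed to 4632 to 5822 CPM in controls and 4416 to 5301 CPM in nlsYAP5SA mice, and 1 of 10 fell. That gene, Neurod6, is the locus that carries Cre in nlsYAP5SA mice and not in controls. Its fall therefore cannot be told apart from the genotype at that locus. Of oligodendrocyte markers 1 of 10 fell (2446 to 3856 and 1668 to 3259 CPM). No marker in any of these lists was at 0 in every sample of a group. The part of microglia, astrocytes and ependymal cells in the collagen changes was not tested.

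**Figure D5:**
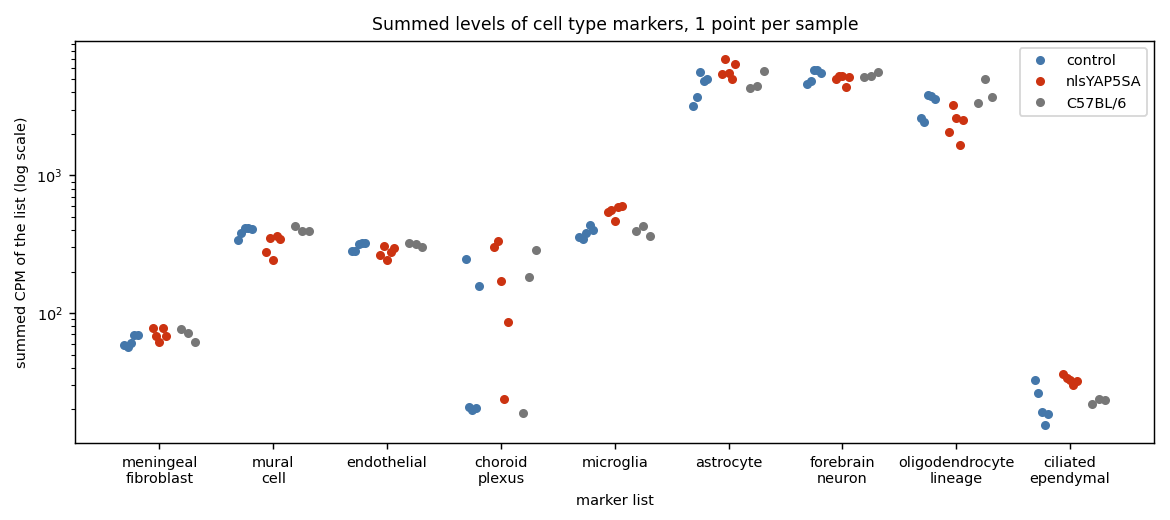
Summed CPM (logarithmic axis) of the markers of 9 cell types in each sample, by group (colours), for 5 control, 5 nlsYAP5SA and 3 C57BL/6 mice. Meningeal, mural and endothelial sums overlap between nlsYAP5SA and control mice, microglial sums do not, and choroid plexus sums spread over more than a factor of 10 within each group.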

How the data were processed

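RNA of the right hemisphere of 13 mice was sequenced. Per the labels and the methods of the study, the authors trimmed reads with CutAdapt 1.5, aligned them with STAR (2.2.2a in the submitters' processing notes; the methods give another version) to GRCm38 with Ensembl release 86, and deposited the expected counts that RSEM 1.3.0 estimated per gene; the strand setting is not given in the sources used here. Here these estimated counts, of which 12.4 to 13.3% per sample were not whole, were rounded, and each comparison was fitted over the samples of its 2 groups with edgeR 4.0.16 (R 4.3.3; TMM, filterByExpr with a minimum count of 10 and a minimum total of 15, quasi-likelihood test; a gene was called where its p, adjusted by Benjamini and Hochberg's method over all genes tested, was at most 0.05). The 446 identifiers without a symbol held 0.0649% of the counts and could not be matched to the rule. A standard error is the log2 fold change over the root of its F, is not given for changes under 0.05, and sets the approximate 95% intervals. Levels per kilobase used merged exons of GENCODE M21. Mice, not repeat libraries, were the replicates, and the library totals of 20871566 to 25524349 mean that genes with few CPM rest on few counts, where counting error adds to the spread between mice. Alternatives were other scalings, filters, DESeq2 1.42.0, a replicate block, covariates and leaving out libraries. The collagen genes, classes, gene lists and tests were chosen with earlier results of these data known. Collagen genes were named where called in any comparison, in classes of under 4 members, or among the 2 highest levels per kilobase of a class, and pathway genes where among the 5 largest called changes of a list in each direction; marker genes were named after their values were seen. Figures were drawn with matplotlib 3.10.9.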

Additional observations from a re-analysis of the deposited data

Results flagged for a closer look

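In 2 of 62 groups of values of the 31 named collagen genes, 1 sample lay farther from the rest than Dixon's 95% limit, where chance gives about 1 in 20. Both came from nlsYAP5SA replicate 3. Col5a2 was at 20.9 CPM there, against 35.0 to 39.7 CPM in the other 4 nlsYAP5SA mice, and Col8a1 was at 21.6 CPM, against 33.1 to 37.0 CPM. Both values were above every control, and both genes remained called higher without that library.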

How the results depend on the processing

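No called collagen gene changed direction in any alternative; some genes that were not called changed sign, such as Col4a2, from -0.17 to 0.26 around its 0.02 against controls. Against controls, 5 rose in the libraries with Y-linked reads, and leaving out 1 library gave 11 to 14, where all genes gave 914 to 1287 higher and 296 to 641 lower. The number lower was 1 with library size alone or the Ttr covariate, 0 with the Y-linked covariate, the mural covariate or the libraries with Y-linked reads, and 0 to 2 without 1 library. Fibrillar genes higher numbered 3 with the Y-linked covariate and 1 in the libraries with Y-linked reads (4 to 6 without 1 library). Fibrillar genes lower numbered 2 under DESeq2 with or without a prior, 0 with library size alone, the Y-linked, Ttr or mural covariate or the libraries with Y-linked reads, and 0 to 1 without 1 library. Type IV genes higher numbered 2 in the libraries with Y-linked reads. FACIT genes higher numbered 1 with the replicate block or the meningeal covariate, 0 with the Y-linked covariate or the libraries with Y-linked reads, 4 with the mural covariate, and 1 to 2 without 1 library. Against C57BL/6 mice, the replicate block and the libraries with Y-linked reads each left 0 higher and 0 lower, and leaving out 1 library gave 7 to 12 higher and 0 to 4 lower, where all genes gave 302 to 987 higher and 99 to 770 lower. Of the pathway genes, 12, 15 and 10 were higher with the Y-linked covariate, the meningeal covariate and the libraries with Y-linked reads (18 to 28 without 1 library), and 0 were lower with the Y-linked covariate, the mural covariate or the libraries with Y-linked reads (1 to 4 without 1 library). The libraries with Y-linked reads left 2 nlsYAP5SA mice, 1 of them replicate 3, so fewer samples were tested; the cause of the other changes was not tested.

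Replicate numbers did not pair the mice: same-numbered nlsYAP5SA and control samples had correlations of 0.31, -0.16, -0.31, -0.09 and 0.11, and 1 of 5 correlated best with its own number. With the number as a replicate block, 12 collagen genes were higher and 2 lower against controls, where all genes gave 936 higher and 303 lower of 16315; Col11a2 and Col20a1 lost their calls and Col3a1 gained one. Against C57BL/6 mice, where 3 numbers are shared, the block left none of the 14 calls, Col4a3, Col4a4, Col4a5, Col8a1, Col8a2 and Col11a1 included, and all genes gave 45 higher and 2 lower of 16641. Over the 43 tested collagen genes and their alternatives against controls, 928 values gave the same call, 46 lost it and 13 gained it.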
